A study of Homo sapiens with 4 samples.

Results

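Gene expression after loss of ALKBH3 was compared in PC3 cells at the later of 2 collection times, 96 h past the start of drug selection. The comparison holds the 2 samples labelled 96 h, of 4 in all. 1 array carries RNA from cells with an shRNA against ALKBH3 and 1 carries RNA from cells with a control shRNA, which the study's methods give as directed against GFP. PC3 is an established line of human prostate cancer cells. Both groups had been infected with lentivirus for 48 h, selected with puromycin and collected as a pool of infected cells, so the controls also carried a virus, an shRNA and the drug. The sequence of the shRNA against ALKBH3 is not named in the labels, and a single shRNA stands for the knockdown. The remaining 2 samples are the same pair of shRNAs collected at 48 h, with a control array of their own.

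ALKBH3 is a member of the AlkB family of oxidative demethylases, which remove methyl groups from DNA and RNA bases and so repair alkylation damage. It acts on methyl groups at positions of adenine and cytosine that block base pairing, and it prefers single strands. Prostate cancer cells are known to express it. 3 genes serve as markers of the comparison at 96 h, and all 3 were past 2-fold in the same direction at 48 h. CSF2 encodes GM-CSF, a secreted growth factor for granulocytes and macrophages. CRABP1 encodes a cytoplasmic protein that binds retinoic acid, and FAM20A encodes a pseudokinase of the secretory pathway that partners the kinase FAM20C.

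The 250 bases before the start of CSF2 and of CRABP1 are shown because these genes had the largest difference in each direction among genes measured on both arrays. Sequences are those of RefSeq on GRCh38.p14, read 5′ to 3′ on the + strand that both genes lie on, at chr5:132073539-132073788 for CSF2 and chr15:78340103-78340352 for CRABP1. Capitals mark matches to the motifs searched, which are described with the promoters further on.
CSF2: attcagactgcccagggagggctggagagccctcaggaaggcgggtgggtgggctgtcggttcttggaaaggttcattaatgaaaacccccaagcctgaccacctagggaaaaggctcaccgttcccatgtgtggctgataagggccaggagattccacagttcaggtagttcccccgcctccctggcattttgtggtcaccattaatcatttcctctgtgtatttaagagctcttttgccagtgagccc
CRABP1: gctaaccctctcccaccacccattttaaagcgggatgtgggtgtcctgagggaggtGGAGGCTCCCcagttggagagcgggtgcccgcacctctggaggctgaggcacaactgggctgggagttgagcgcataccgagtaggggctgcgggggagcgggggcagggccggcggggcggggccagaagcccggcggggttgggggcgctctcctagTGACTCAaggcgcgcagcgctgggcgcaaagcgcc

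Each signal below is a log2 intensity relative to the 75th percentile of its own array, so 0 is that percentile and negative values are dimmer. A difference is the log2 signal with ALKBH3 shRNA minus that with control shRNA. With 1 array per group there is no test and no estimate of the spread between cultures. The only repeat is the spot, and the error given after ± is the spot error of a difference, from the SD between spots of 1 probe on 1 array. It had a median of 0.12 and a 95th percentile of 0.41 over the 14198 genes measured on both arrays, and it leaves out the spread between cultures, extractions, labellings and arrays. Precision is thus set by the small number of arrays.

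The 2 arrays of 96 h lay on 1 slide, and the 75th percentile of intensity was 2340 on the control array and 2394 on the ALKBH3 array. Of 34127 probes, 67.0% were well above background on the control array and 70.9% on the ALKBH3 array. Of 19102 genes on the array, 15111 were well above background on at least 1 of the 2 arrays. 14198 of them were measured on both, 770 on the ALKBH3 array alone and 143 on the control array alone. Epithelial and PC3 markers were measured on both arrays: KRT18, a keratin of simple epithelia, had a signal of 5.44 with control shRNA and 5.32 with ALKBH3 shRNA, and HOXB13, a prostate transcription factor, of 5.72 and 4.88. KLK3, which encodes the secreted prostate-specific antigen, was not well above background on either array, as is known for this line. Of 15 markers of other cell types on the array, 10 were measured on both arrays. COL1A1, a fibrillar collagen, was at -1.44 and -0.55, CD68, of macrophages, at -1.21 and -1.22, and the leukocyte marker PTPRC at -4.53 and -4.63.

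The targeted gene was lower on the ALKBH3 array. ALKBH3 had a signal of -0.89 with control shRNA and -2.41 with ALKBH3 shRNA, a difference of -1.51 ± 0.12, or 2.85-fold. A second ALKBH3 probe went from -0.61 to -2.68, a difference of -2.07. At 48 h the same probes gave -1.74 and -2.03. The 12 other genes of alkylation repair that were measured, among them ALKBH2, FTO and MGMT, differed by between -0.35 and 0.10.

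Across all genes the difference was centred near 0. Its median was 0.01, its quartiles were -0.13 and 0.16, and its median size was 0.15, the same as at 48 h. 315 of 15111 genes were at least 2-fold higher with ALKBH3 shRNA (2.08%) and 81 were at least 2-fold lower (0.536%). Many of these were dim. 195 of the higher genes were well above background on the ALKBH3 array alone, and 26 of the lower genes on the control array alone, and for these only a lower limit of the fold can be given. The limit itself reached 2-fold for 63 higher and 13 lower genes. The larger share of probes above background on the ALKBH3 array moved with this excess of higher genes, and its part in it was not tested. With normexp background correction the counts were 55 higher and 36 lower genes. This setting starts from the median signal and the median background of each spot, not from the processed intensity. It also adds an offset of 50 to every spot, which draws dim signals together. The parts of these steps in the change of counts were not tested.

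Among genes measured on both arrays, 120 were at least 2-fold higher (0.845%) and 55 at least 2-fold lower (0.387%). The median difference was 1.18 in the first group and -1.17 in the second. 6 genes were at least 4-fold higher and 4 at least 4-fold lower. 10 of the 120 higher genes and 1 of the 55 lower genes lay within 3 spot errors of 0. Of 4 groups of equal size by mean signal, the dimmest held 72 of the 120 higher and 17 of the 55 lower genes, against 12 and 4 in the brightest. Within 0.05 of the threshold of 1, 18 higher genes lay inside and 28 genes outside, and for the lower genes the same counts were 7 and 10. Where a gene had several probes, 18 of 19 higher and 17 of 19 lower genes had every probe on the same side of 0, and 8 and 9 had every probe past 2-fold.

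**Figure D1:**
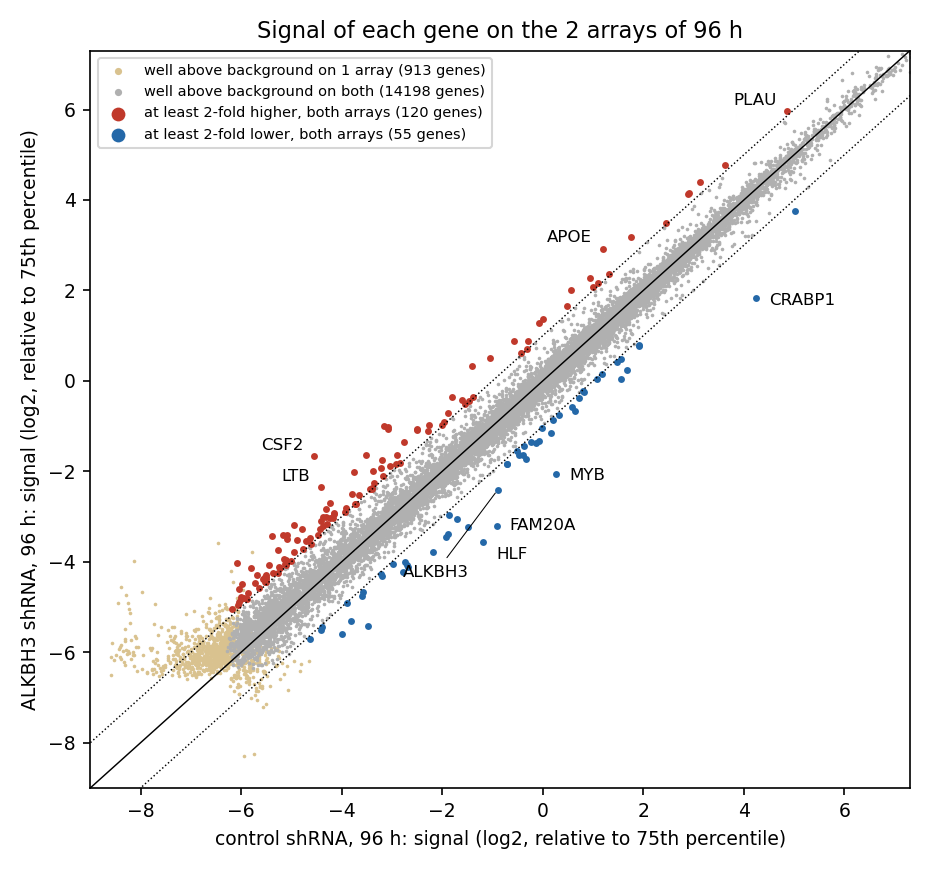
Signal of each gene on the control array (horizontal axis) and the ALKBH3 array (vertical axis) at 96 h, in log2 relative to the 75th percentile of the array. The solid line marks equal signal and the dotted lines a 2-fold difference. Red points are the 120 genes at least 2-fold higher and blue points the 55 genes at least 2-fold lower among 14198 genes measured on both arrays. CSF2 and CRABP1 lie farthest from the line on either side, and genes well above background on 1 array gather at the dim end.

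Secreted immune factors made up part of the largest differences. CSF2 had the largest of all genes measured on both arrays. At 96 h its signal was -4.55 on the control array and -1.66 on the ALKBH3 array, and at 48 h it was -3.96 and -1.69. Both ALKBH3 arrays were thus above both control arrays, and the dimmest of the 4 was the control at 96 h. The difference was 2.89 ± 0.14 at 96 h, or 7.39-fold, and 2.27 at 48 h. With normexp the difference at 96 h was 2.12. Of 10 measured genes of a list of haematopoietic growth factors (7 genes) and their receptors (3 genes), CSF2 was the only one at least 2-fold higher, where 2.08% of all genes were. CSF3, which encodes G-CSF, the growth factor for neutrophils, was at least 2.03-fold lower, with a signal not well above background on the ALKBH3 array. With normexp CSF3 was at -0.35. The median over the 10 genes was 0.07.

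LTB, which encodes lymphotoxin beta, a membrane-bound ligand of the TNF superfamily, had a signal of -4.42 with control shRNA and -2.36 with ALKBH3 shRNA. Its difference was 2.06 ± 0.14, or 1.57 with normexp, against 1.93 at 48 h. LTB was the only one of 18 genes of TNF ligands and receptors at least 2-fold higher, where 2.08% of all genes were. The median over the 18 was 0.13. IL23A, the subunit that is particular to interleukin 23, stood at -1.40 and 0.33, a difference of 1.73 ± 0.11 that exceeded the 1.0 at 48 h. Of 17 interleukins and related cytokines, 15 were measured on both arrays. IL23A and IL32 were at least 2-fold higher among these, and 1 gene was lower. The shares over all genes measured on both arrays were 0.845% and 0.387%. The median over the 17 was 0.06. IL32, a cytokine of inflammation, was higher by 1.04 ± 0.14, or 0.84 with normexp. IL24, a cytokine of the interleukin 10 family, had a limit of 1.53-fold, under the threshold. IL1B, the inflammatory cytokine interleukin 1 beta, went the other way. Its probe has 10 spots on each array, which lay between 0.61 and 0.87 with control shRNA and between -0.56 and -0.18 with ALKBH3 shRNA, and the difference was -1.10 ± 0.04. Spots repeat a single array each, so these ranges do not measure the spread between cultures.

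Receptors for interleukins had a median of 0.07. 1 of 23 was at least 2-fold higher, where 2.08% of all genes were. This was IL7R, a receptor chain shared by interleukin 7 and TSLP, at 1.05 ± 0.12 against 1.83 at 48 h. Of 16 chemokines, 11 were measured on both arrays. 15 of the 16 were above 0 and the median was 0.38. A gene that enters on the ALKBH3 array alone tends to lie above 0, so both values partly follow from the filter. The 2 past 2-fold, CCL20 and CXCL10, were well above background on the ALKBH3 array alone, and the limit for CXCL10 was 1.34-fold. At 48 h that limit was 7.18-fold. None of 15 NF-kB feedback genes was past 2-fold, where 0.845% of genes measured on both arrays were higher and 0.387% lower. Their median was 0.03.

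Interferon-stimulated genes were higher as a group at 96 h, by less than at 48 h. All 40 measured genes of the list were well above background on both 96 h arrays. 11 of 40 were at least 2-fold higher at 96 h, beside 0.845% of genes measured on both arrays and 2.08% of all genes. At 48 h 33 of 40 were, beside 2.1% of all genes. The median was 0.80 against 1.74. 39 of 40 were above 0 at 96 h, and 38 had a smaller difference than at 48 h. RSAD2, an antiviral enzyme, had the largest difference of the list, at 1.45 ± 0.11, and stood at 3.06 at 48 h. MX2, an antiviral GTPase, was at 1.36 against 2.76, and IFIT1, which binds foreign RNA ends, at 1.24 against 1.92. Of 17 genes of MHC class I presentation, none was past 2-fold at 96 h, where 0.845% of genes measured on both arrays were higher and 0.387% lower. Their median was -0.02 against 0.52 at 48 h. The fold at 96 h was therefore nearer to 1 for both lists, while it was larger for CSF2 and IL23A. Slide and time cannot be told apart in this comparison of the 2 times.

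The other genes with the largest positive differences have varied roles. COXFA4L3, a small mitochondrial protein related to a subunit of cytochrome c oxidase, was at 2.17 ± 0.14, against 2.18 at 48 h. SLAMF7, a receptor of immune cells, was at 2.06 ± 0.33 and HSH2D, an adaptor of haematopoietic cells, at 2.06 ± 0.14. HSH2D depends on the probe, since its second probe gave 0.08. LY6K, a protein anchored to the outer membrane by a lipid, was at 2.02 ± 0.14. APOE, the lipid carrier of lipoproteins, had a signal of 1.19 with control shRNA and 2.93 with ALKBH3 shRNA, and its difference of 1.73 ± 0.11 was below the 2.03 of 48 h. DYSF, which acts in membrane repair, was at 1.75 ± 0.14. SPINK2, a protease inhibitor, RFTN1, a protein of lipid rafts, CALHM3, a channel subunit, and ESPNL, a protein of actin bundles, lay between 1.65 and 1.78. With normexp 12 of the 15 largest stayed past 2-fold, and SPINK2, CALHM3 and ESPNL fell short, at 0.89, 0.96 and 0.97. Of the 15 largest, 13 had the same sign at 48 h, 12 were at least 2-fold higher then as well, and 9 were larger at 96 h.

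**Figure D2:**
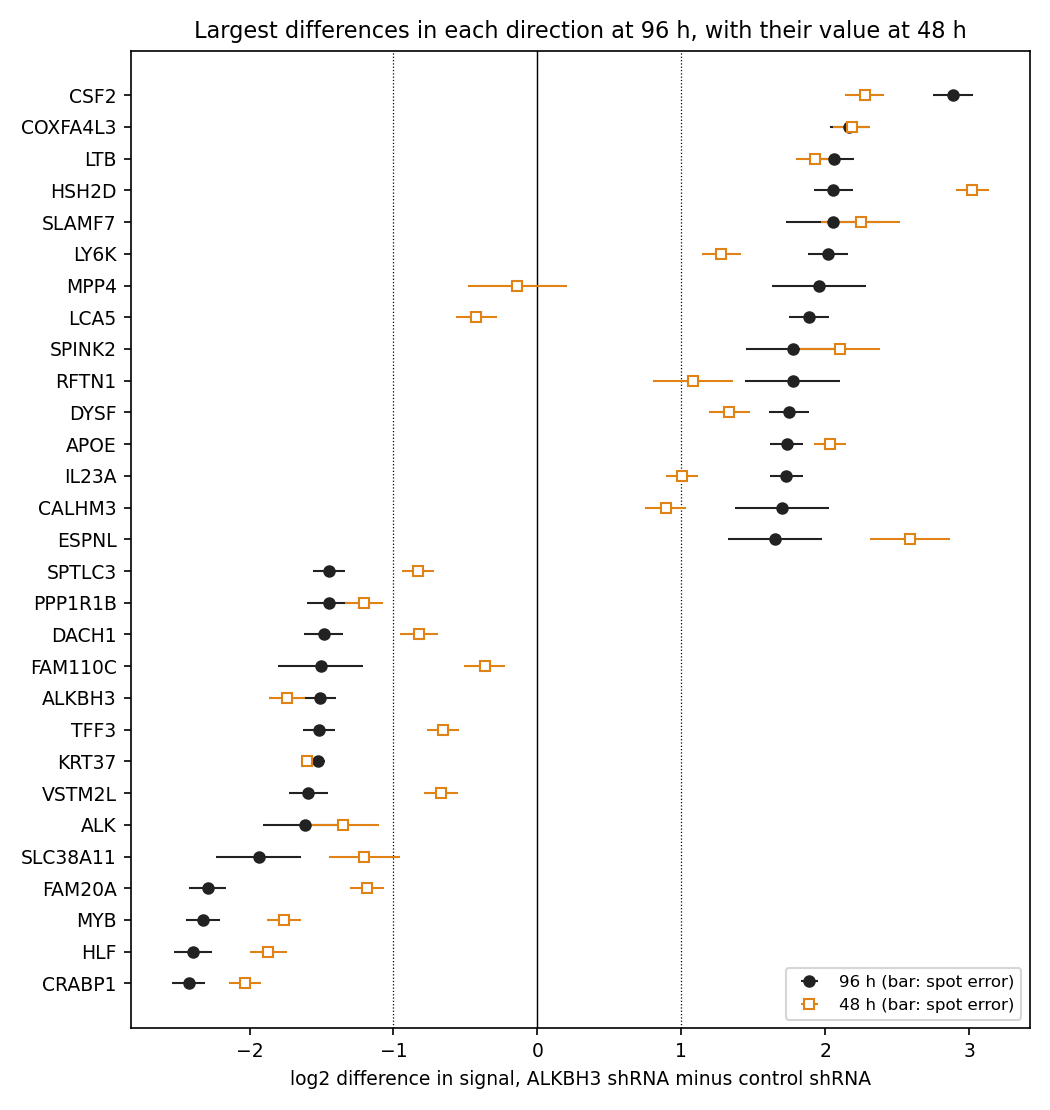
Log2 difference (ALKBH3 shRNA minus control shRNA) of the 15 genes with the largest positive difference and of 14 of the 15 with the largest negative difference at 96 h. Black points are 96 h and open orange squares 48 h, bars are spot errors and dotted lines mark 2-fold. CSF2 stands at 2.89 and CRABP1 at -2.42, and MPP4 and LCA5 are the 2 genes whose value at 48 h lies on the other side of 0.

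Retinoid handling was split. At 96 h CRABP1 had a signal of 4.25 on the control array and 1.82 on the ALKBH3 array, and at 48 h of 4.73 and 2.69. Both ALKBH3 arrays were below both control arrays, and the lowest was that of 96 h. The difference was -2.42 ± 0.12, or 5.36-fold, against -2.03 at 48 h, and a second probe gave -2.52. PLAAT4, a phospholipid-modifying enzyme that retinoids induce, was lower by 1.07 on the log2 scale at 96 h and stood at 0.46 at 48 h, and with normexp its value at 96 h was -0.85. In the other direction TGM2, a transglutaminase that retinoic acid induces, was at 1.55 ± 0.11, and LRAT, which stores retinol as esters, was at least 2.07-fold higher, but at 0.41 with normexp. Of 20 genes of the list, 2 were at least 2-fold higher and 2 lower, beside 2.08% and 0.536% of all genes, with a median of 0.05.

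At 96 h FAM20A had a signal of -0.92 on the control array and -3.21 on the ALKBH3 array, and at 48 h of -0.35 and -1.53. Its level on the ALKBH3 array was lower at 96 h than on any other array. The difference was -2.29 ± 0.13, or 4.89-fold, and had been -1.18 at 48 h. A second, dimmer probe gave -1.21 ± 0.41 at 96 h and -0.82 at 48 h. FAM20C kinase phosphorylates secreted proteins, and 6 genes of this kinase family and its secreted phosphoprotein substrates were measured. SPARC, a matrix protein that binds calcium and collagen, was lower among these, at -1.26 ± 0.12 against -0.45 at 48 h. AMELX, an enamel protein, was above background on the ALKBH3 array alone, at least 1.15-fold higher.

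3 regulators of transcription were among the largest negative differences. HLF, a bZIP factor of the PAR family, had a signal of -1.18 with control shRNA and -3.57 with ALKBH3 shRNA, a difference of -2.39 ± 0.13. It was the only one of 17 PAR bZIP and clock genes past 2-fold, where 0.845% of genes measured on both arrays were higher and 0.387% lower. The median over the 17 was -0.09. MYB, a transcription factor of progenitor cells, stood at 0.27 and -2.05, a difference of -2.32 ± 0.12. It was the only one of 12 genes of the MYB and MYC families past 2-fold, beside the same shares of genes. DACH1, a nuclear corepressor, was at -1.48 ± 0.13 on one probe and -1.76 on the other. All 3 had smaller negative values at 48 h, of -1.87 for HLF, -1.76 for MYB and -0.82 for DACH1.

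The remaining genes of this group included membrane and signalling proteins. SLC38A11, of an amino acid transporter family, was at -1.94 ± 0.30, and ALK, a receptor tyrosine kinase, at -1.61 ± 0.30. PPP1R1B, an inhibitor of protein phosphatase, and SPTLC3, a subunit of the enzyme that begins sphingolipid synthesis, were both at -1.45. KRT37, a hair keratin, has the smallest spot error of the 15 largest negative differences. Its probe has 10 spots on each array, where the named probes of the other genes have 1. Its 10 spots lay between -1.99 and -1.85 with control shRNA and between -3.53 and -3.32 with ALKBH3 shRNA. The difference was -1.52 ± 0.04, an error that holds the spread of spots alone, pooled over probes of similar signal. TFF3, a secreted mucosal peptide, was at -1.52 ± 0.11 on its brightest probe and -1.36 on the next, but 0.15 on its dimmest probe. FAM110C was at -1.51 ± 0.30 on one probe and -0.26 on the other. With normexp 12 of the 15 stayed past 2-fold, and ALK, FAM110C and PPP1R1B were at -0.96, -0.86 and -1.0, the last just short of the threshold. All 15 of the largest negative differences had the same sign at 48 h, 10 were at least 2-fold lower then as well, and 13 were larger at 96 h.

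Genes measured on a single array give limits only. FAM9B was at least 7.42-fold higher with ALKBH3 shRNA, MARVELD3, a protein of tight junctions, at least 5.73-fold, C3orf20 at least 4.04-fold, LUM, the matrix proteoglycan lumican, at least 3.95-fold and SCGB1D4, a secretoglobin, at least 3.83-fold. At 48 h, with both arrays above background, LUM was at 1.99 and C3orf20 at 0.18, and the other 3 were above background on neither array. In the other direction NPY2R, a receptor for neuropeptide Y, was at least 2.98-fold lower, OR52R1, an olfactory receptor, at least 2.93-fold and PDE10A, a phosphodiesterase of cyclic nucleotides, at least 2.87-fold. CASC2, a non-coding RNA, was at least 2.72-fold lower and ATP2B2, a calcium pump, at least 2.56-fold. These limits depend on how dim signals are treated. With normexp FAM9B was at 1.05 and MARVELD3 at 1.29 on the log2 scale, C3orf20, LUM and SCGB1D4 lay between 0.89 and 0.97, and the 5 lower genes between -0.80 and -0.57.

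Most large differences at 96 h had the same sign at 48 h. The 2 comparisons share no array. Of 118 higher genes measured on all 4 arrays, 64 were at least 2-fold higher at 48 h as well, 114 had the same sign and 76 were larger at 96 h. Of 55 lower genes, 19 were at least 2-fold lower at 48 h, 51 had the same sign and 47 were larger at 96 h. Over all 14021 genes measured on all 4 arrays, 191 were at least 2-fold higher at 48 h and 40 at least 2-fold lower. The share of all genes with the same sign at both times was not computed. The median over the higher genes was 1.02 at 48 h against 1.18, and over the lower genes -0.82 against -1.17. These genes were chosen by their value at 96 h, so a smaller value at 48 h is partly fixed by the choice.

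A gene was called new where it was past 2-fold at 96 h and below 0.5 in that direction at 48 h, and larger where it had been past 0.5 at 48 h and gained at least 0.5. Of 14021 genes measured on all 4 arrays, 17 were new and higher (0.121%), 12 new and lower (0.0856%), 15 larger and higher (0.107%) and 13 larger and lower (0.0927%). Of these 57 genes, 30 had a gap between the times of at least 3 spot errors. The new higher genes were mostly dim. For 16 of 17 the spot error was above 0.25, which held for 4 of the 12 new lower genes.

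LCA5, which encodes lebercilin, a protein of the cilium, was the exception among the new higher genes. At 96 h its signal was -3.52 on the control array and -1.63 on the ALKBH3 array, and at 48 h it was -3.14 and -3.56. The ALKBH3 array at 96 h stood above the other 3, which lay close together. The difference was 1.89 ± 0.14 at 96 h and -0.42 at 48 h. MPP4, a scaffold protein of photoreceptors, was at 1.96 ± 0.33 against -0.14, with 0.68 on its second probe. DAPK1, a kinase of cell death, was at 1.51 ± 0.33 against 0.14. CACNB1, a calcium channel subunit, MLC1, a membrane protein of astrocytes, and AUTS2, a nuclear regulator, lay between 1.06 and 1.23, each with a spot error of 0.41. From 48 h to 96 h the control signal of MLC1 went from -4.81 to -5.86, and its ALKBH3 signal from -4.80 to -4.68. For AUTS2 the control went from -4.87 to -5.89 and the ALKBH3 signal from -5.08 to -4.83. CACNB1 differed mainly on the ALKBH3 array, from -5.74 to -4.77, with the control at -5.73 and -6.00. With normexp DAPK1 was at 0.79, MLC1 at 0.51, CACNB1 at 0.48 and AUTS2 at 0.18, while LCA5 and MPP4 stayed past 2-fold, at 1.45 and 1.03.

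Among the new lower genes, CDH6, a cadherin of cell contacts, was at -1.13 ± 0.15 against 0.37 at 48 h, CADM2, an adhesion molecule, at -1.05 ± 0.30 against 0.16, and TSPAN8, a tetraspanin, at -1.02 ± 0.11 against 0.22. PLAAT4, described above, had the widest gap of the new lower genes, of -1.54. OVOL1, a repressor that maintains epithelial state, was at -1.09 ± 0.30 against -0.07. It was the only one of 26 epithelial and mesenchymal genes past 2-fold, where 0.845% of genes measured on both arrays were higher and 0.387% lower. With normexp TSPAN8 stayed past 2-fold at -1.06, while CDH6, OVOL1 and CADM2 were at -0.82, -0.73 and -0.50.

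Among genes larger at 96 h, FAM20A had the widest gap, of -1.11, on its brighter probe, and its second probe had a gap of -0.39. VSTM2L was at -1.59 ± 0.13 against -0.67 at 48 h and NPY1R, a receptor for neuropeptide Y, at -1.23 ± 0.12 against -0.52. RAB3B, a GTPase of vesicle release, was at 1.59 ± 0.33 against 0.62, and at 0.92 with normexp. LY6K, CALHM3, RFTN1 and IL23A, already named, were also larger, with gaps between 0.69 and 0.81. CSF2, HLF and MYB belong here too, with gaps of 0.61, -0.52 and -0.56, and CRABP1 does not, at -0.39. The gap of MYB lay in its control signal, which was -0.58 at 48 h and 0.27 at 96 h. Its ALKBH3 signal was also higher at 96 h, at -2.05 against -2.34.

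**Figure D3:**
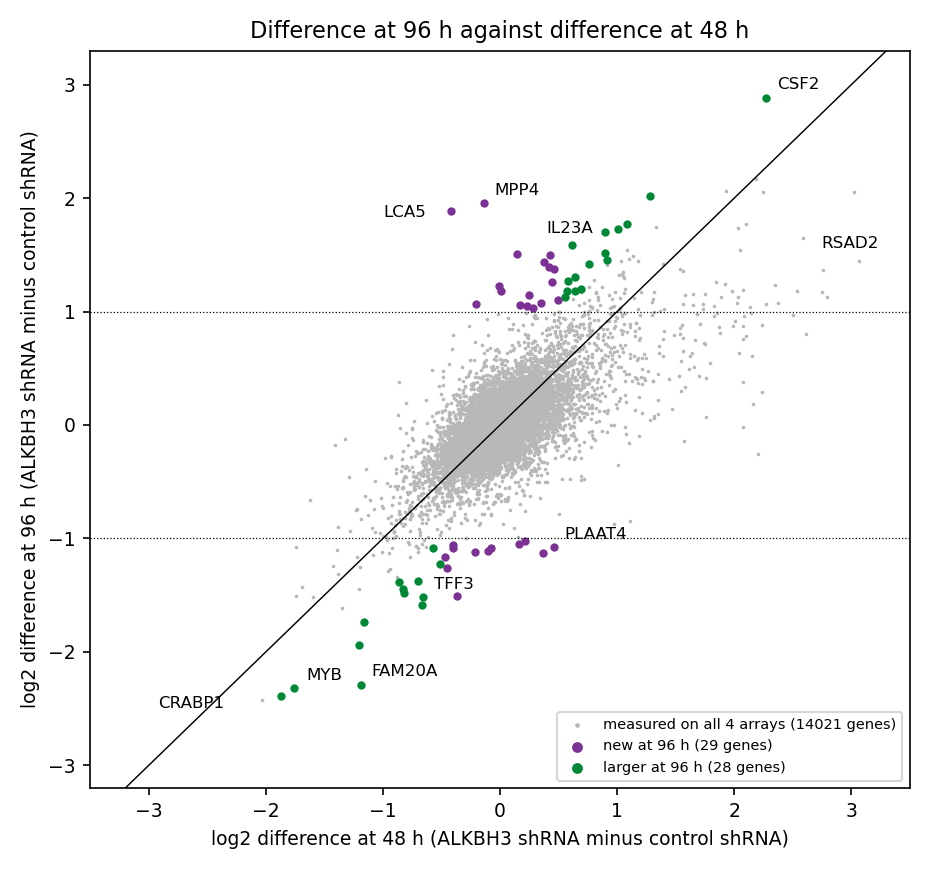
Log2 difference at 48 h (horizontal axis) and at 96 h (vertical axis), ALKBH3 shRNA minus control shRNA, for 14021 genes measured on all 4 arrays. Purple points are the 29 genes called new at 96 h and green points the 28 called larger, the solid line marks equal values and the dotted lines 2-fold at 96 h. LCA5 and MPP4 lie at the upper left, and interferon-stimulated genes such as RSAD2 lie at the right below the line.

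40 gene lists placed these genes among their families. Together they held 822 measured genes, of which 33 were at least 2-fold higher and 14 lower, beside 2.08% and 0.536% of all genes. 25 and 12 of them were measured on both arrays. Metallothioneins, small proteins that bind zinc and copper, were higher together without passing 2-fold, with a median of 0.85 over the 11 measured genes of their list beside 0.01 over all genes. The 9 measured members of the MT1 and MT2 groups were higher by between 0.59 and 1.0 at 96 h, against 0.25 to 0.70 at 48 h, and each was larger at 96 h. MT1X had a signal of 3.15 with control shRNA and 4.15 with ALKBH3 shRNA, and MT2A of 6.16 and 6.80. Copies of this family are near-identical and their probes may share signal, so these are not 9 independent measurements. MT3 and the zinc exporter gene SLC30A1 were at -0.09 and -0.06.

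Matrix and growth factor genes gave a few differences. LTBP2, which binds fibrillin in the matrix, was at 1.43 ± 0.41. TGFB2, a ligand of the TGF-beta family, was at 1.15 ± 0.15 and ID1, a target of BMP signals, at 1.03 ± 0.11. These were the 3 of 26 TGF-beta and BMP genes past 2-fold. Of genes measured on both arrays 0.845% were higher, and of all genes 2.08%. With normexp ID1 alone stayed past 2-fold, and TGFB2 and LTBP2 were at 0.58 and 0.48. CCN1, a secreted matrix protein, was at 1.27 ± 0.11 against 0.58 at 48 h. PLAU, the protease urokinase, was measured by 10 spots with control shRNA, between 4.79 and 4.96, and by 9 spots with ALKBH3 shRNA, between 5.79 and 6.19. Its difference was 1.10 ± 0.04, and its inhibitor family member SERPINB2 was at 1.06 ± 0.33, or 0.51 with normexp. These were the 2 of 21 proteases and inhibitors past 2-fold, where 2.08% of all genes were higher.

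Other lists had 1 or 2 members past 2-fold, as 2.08% of all genes did upward and 0.536% downward. Over genes measured on both arrays the shares were 0.845% and 0.387%. EGR2, a zinc finger factor, was the only one of 17 AP-1 and immediate early genes past 2-fold, at 1.37 ± 0.33, or 0.85 with normexp. BIK, which promotes cell death, was the only one of 19 BCL2 family genes, at 1.05 ± 0.12. SLC7A11, the cystine transporter of glutathione synthesis, was lower by 1.07 on the log2 scale, or 0.99 with normexp, and CD55, which protects cells from complement, by 1.12. CD55 was the only one of 13 acute phase and complement genes past 2-fold, and their median of -0.32 was the lowest of the lists. S100A9, a calcium-binding protein of inflammation, and HOXB9 and HOXC10, homeobox factors, were well above background on the ALKBH3 array alone, with limits of 1.03-fold, 2.38-fold and 2.18-fold, and with normexp at 0.27, 0.31 and 0.50. SYP, a vesicle protein of neurons, was the only one of 13 markers of other cell types past 2-fold, at least 2.10-fold lower and above background on the control array alone, and at -0.58 with normexp.

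Lists of basic cell functions, and some of signalling and immune genes, stayed close to all genes. In 15 lists other than the metallothioneins no member was past 2-fold, where 2.08% of all genes were higher and 0.536% lower. Among them are the lists of NF-kB feedback, MHC class I presentation, MAPK feedback, EGF receptors and RGS genes. Single members came near the threshold, at 0.97 in NF-kB feedback and -0.97 in heat shock. The medians of these 15 lists lay between -0.11 and 0.13, beside 0.01 for all genes. The 15 lists also include 28 mitosis genes, at a median of 0.04, 29 of DNA replication, at 0.10, and 26 of DNA damage repair, at 0.06. The 24 p53 targets and cell cycle inhibitors were at 0.01. The median was 0.05 over 63 ribosomal protein genes and -0.07 over 15 housekeeping genes.

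**Figure D4:**
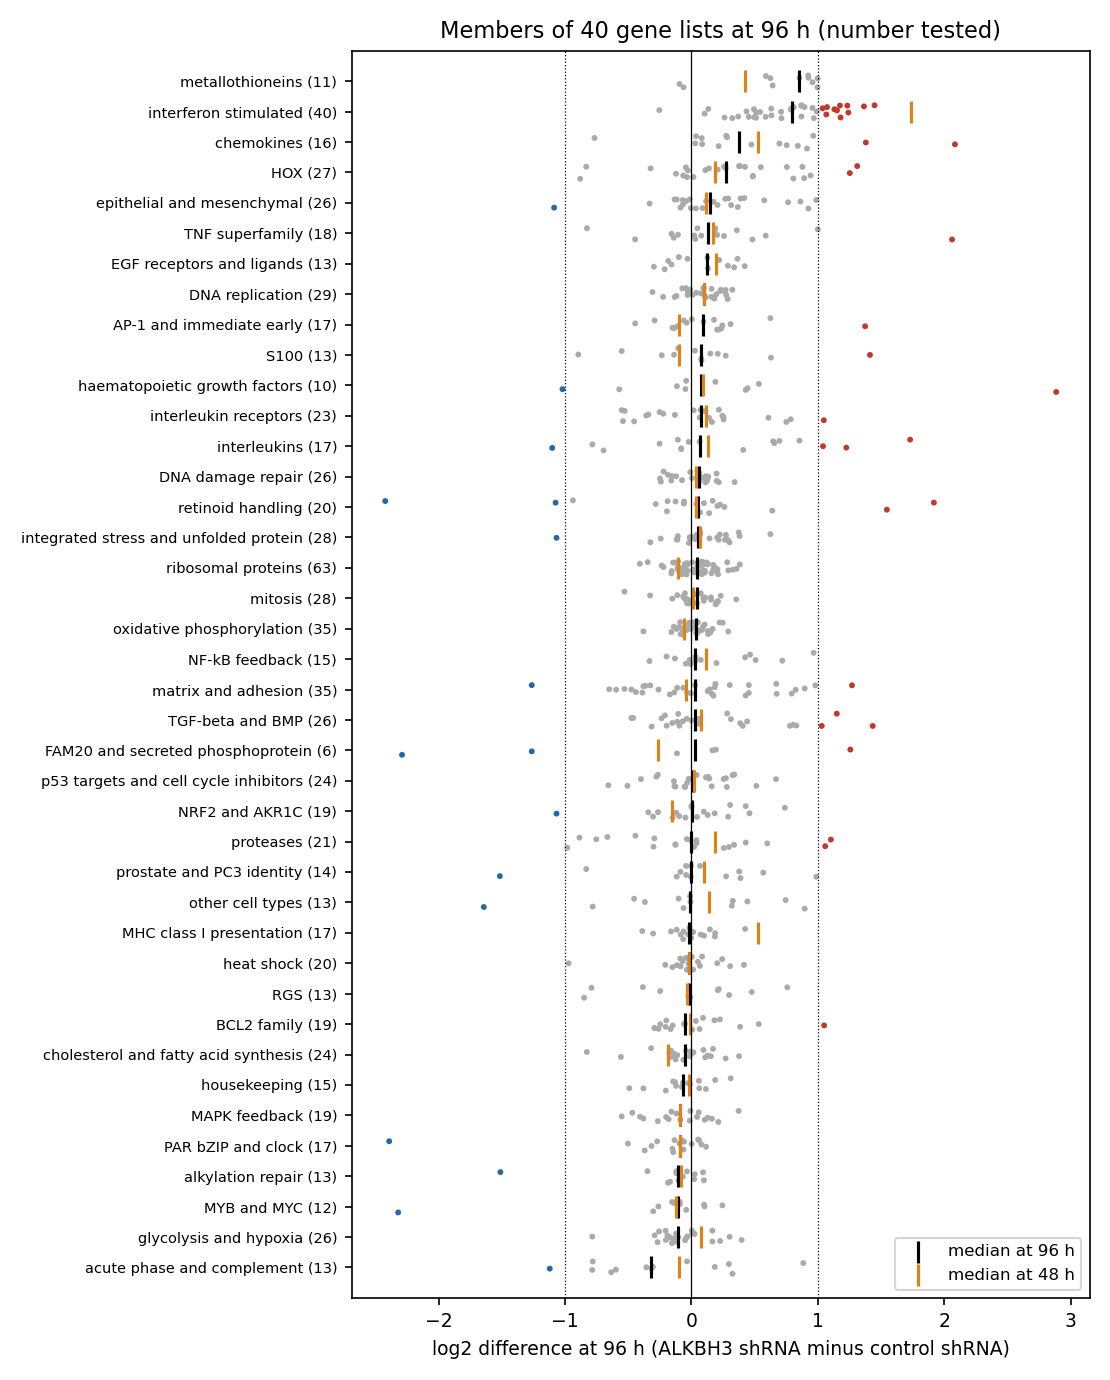
Log2 difference at 96 h (ALKBH3 shRNA minus control shRNA) of each measured member of 40 gene lists, with the number measured in brackets. Points are red where at least 2-fold higher and blue where at least 2-fold lower, black bars are list medians at 96 h, orange bars medians at 48 h and dotted lines 2-fold. Metallothioneins and interferon-stimulated genes have the highest medians, of 0.85 and 0.80, and most other lists sit near 0.

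The 250 bases before each gene start were searched on both strands for TATAAA and the AP-1 motif TGANTCA. The CRE motif TGACGTCA, the ETS motif CCGGAAG and the NF-kB motif were searched in the same way. The NF-kB motif was a run of G and a run of C with partly free bases between. Only full matches were counted, so a site that differs from a motif by a single base was missed. CSF2 held no full match to these motifs, which does not show that it lacks such sites. CRABP1 held an AP-1 match from 35 to 29 bases before the start and an NF-kB match farther up. Promoter sequences were found for 88 of the 120 higher and 41 of the 55 lower genes. AP-1 matches were in 14.8% of the higher, 7.32% of the lower and 6.40% of the 11346 genes measured on both arrays that had a sequence. TATAAA was in 19.3%, 17.1% and 9.37%, the NF-kB motif in 13.6%, 22% and 15.5%, and the ETS motif in 5.68%, 9.76% and 17.6%. Over all 27305 genes of the table the shares were 8.06% for AP-1, 13% for TATAAA, 11.8% for NF-kB, 10.2% for ETS and 2.03% for CRE. These matches are descriptions of the letters in the window and were not tested.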

How the data were processed

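Each of 4 PC3 samples (200 ng of RNA) was hybridised to its own Agilent array in a single colour. For each array the authors deposited the processed intensity of every spot, from which Agilent Feature Extraction (10.7.3.1 per the file headers) had subtracted the background, leaving the arrays unnormalized. A second deposited table holds log2 values of the same arrays that the authors had normalized with limma, with medians of 7.53 and 7.54 for the 96 h arrays. The method within limma is not given in the sources used here, and it served as an alternative only.

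Outlier spots (258 and 180 on the 96 h arrays) and control spots were left out and 0 spots were saturated. Log2 intensity was centred on the 75th percentile of each array over non-control spots, and repeat spots were averaged per probe. A probe was well above background where at least 0.5 of its spots were flagged so. Probe accessions were looked up among RefSeq genes (GRCh38.p14), which gave 24910 probes a name and left 9217 without one. A gene stands for its probe of highest mean signal and entered when that probe was well above background on at least 1 of the 96 h arrays. Spot errors came from the 999 probes with 10 spots, in 10 bins of signal. Each probe took the pooled SD of its bin, divided by the square root of its own number of spots. For a gene well above background on 1 array, the limit sets its signal against the higher of the other array's own value and the dimmest signal well above background there, -6.50 on the control and -6.58 on the ALKBH3 array.

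With 1 array per group no test was made, and leaving out an array was not possible. The text names ALKBH3 and the 3 marker genes, the 15 largest differences in each direction, the 5 largest limits in each direction, the 10 widest gaps among new and among larger genes, and up to 4 members past 2-fold of each list. Other genes were named as markers, as unchanged members of a family or in passing, after their values were seen. Members, lists and rules were chosen with earlier results of these data known. R 4.3.3, limma 3.58.1, the data.table package (1.17.8), Python 3.11.15, pandas 2.3.3, numpy 2.4.6 and matplotlib 3.10.9 were used, and the steps were tested on simulated data. ChIP-seq and qRT-PCR data are not analysed here, and 1 of the 15 largest negative differences is not reported here.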

Additional observations from a re-analysis of the deposited data

Results flagged for a closer look

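Among genes measured on all 4 arrays, 8 past 2-fold at 96 h had the opposite sign at 48 h, CACNB1 by as little as -0.01. With 1 array per shRNA and time, none of these differences was tested, and slide and time cannot be told apart. The 96 h value minus the 48 h value was 2.31 for LCA5, 2.10 for MPP4, 1.27 for AUTS2 and 1.24 for CACNB1, all higher at 96 h. It was -1.54 for PLAAT4, -1.5 for CDH6, -1.24 for TSPAN8 and -1.21 for CADM2, all lower at 96 h. Of 4317 probes without a gene name that were measured on both 96 h arrays, 17 were at least 2-fold higher (0.394%) and 13 at least 2-fold lower (0.301%). Such probes entered no comparison between genes.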

How the results depend on the processing

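Values were recomputed with normexp background correction (offset 50), quantile or loess normalization, centring on the median, a percentile over detected probes, the authors' values, no filter or a stricter one, the mean over probes and a 1.5-fold threshold. None of these turned a direction, and all 80 named genes kept theirs, with 39 past 2-fold in every setting that kept the gene. FAM9B and MARVELD3 are among the 39, though the stricter filter left both out. Normexp gave smaller counts, with 55 higher and 36 lower genes, 52 and 36 of them measured on both arrays, and 10 new and 15 larger genes. It put ALKBH3 at -1.24, CSF2 at 2.12, LTB at 1.57 and SLAMF7 at 1.07. Some values grew in size with normexp, among them CRABP1 at -2.54, CD55 at -1.29 and RSAD2 at 1.54. A result was said to move where a value shifted by at least a spot error, or a count by more than 1.5-fold. With normexp 74 results moved and 15 did not, and with the authors' values 48 moved and 41 did not. The authors' values gave 105 higher genes, 77 of them measured on both arrays, 18 new genes and ALKBH3 at -1.34. With no filter 714 genes were higher and 194 lower, and the median over metallothioneins was 0.64. Requiring both 96 h arrays left 121 higher genes. The mean over probes put ALKBH3 at -1.79. At 1.5-fold 889 genes were higher and 346 lower, 450 and 278 of them measured on both arrays, 250 were new, and 27 interferon-stimulated genes were past the threshold. Chosen after seeing the data, a limit of 3 spot errors left 110 of the 120 higher and 54 of the 55 lower genes, and a gap of 3 spot errors left 13 new and 17 larger genes. The cause of these shifts was not tested, apart from filters and thresholds, which set how many genes enter. No paired analysis was possible because each group holds 1 array.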
